A study of Mus musculus with 6 samples.

Results

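Cell cycle and DNA replication genes were examined in RNA-Seq libraries of 3T3-L1 adipocytes transduced with an adenovirus carrying *LacZ* (AdLacZ, control) or *Lmo3* (Ad*Lmo3*). The set is a list of 45 gene symbols, fixed by name, and it was drawn up with earlier results of these data known: 4 cyclin-dependent kinases, 9 cyclins, 6 inhibitors of these kinases, 3 pocket proteins, 4 E2F factors, 10 replication genes, 7 mitosis genes and the pair *Trp53* and *Mdm2*. All 45 had an entry in each count table, out of 24421 symbols. 3T3-L1 is an established mouse line that forms adipocytes in culture. Its strain is labelled C57BL/6, which could not be checked here. All 6 cultures received the same cocktail from 2 days after confluence, with CS at 10%, insulin at 870 nM, TZD at 5 µM, Dex at 1 µM and IBMX at 500 µM in DMEM, and Dex and IBMX were withdrawn on day 3. Both viruses were given on day 7 at 100 pfu/cell, and RNA was taken 3 days later. Each virus had 3 libraries, which the labels number as replicates without saying whether the cultures were grown and infected separately, so that p-values measure the spread between these libraries, which may be technical. The control cells also carried an adenovirus, and uninfected cells were not analysed here. What infection itself does to these genes could therefore not be read, and whether it was equal with both viruses was not tested.

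A cell passes from growth into DNA synthesis when D-type and E-type cyclins switch on their kinases, which phosphorylate the pocket proteins of the retinoblastoma family and free the E2F factors that drive replication genes. Replication origins are licensed by the MCM helicase, and mitosis is then driven by CDK1 with cyclins A and B and by the Polo-like and Aurora kinases. 3T3-L1 preadipocytes go through a few rounds of division early after the cocktail is added and leave the cell cycle as they become adipocytes. In resting cells the pocket protein p130 and E2F4 belong to the complex that keeps late cell cycle genes silent.

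The counts on genes ranged from 28035639 to 38332335 per library. *Lmo3* itself was at 0 counts in each of the 6 libraries. A count of 3, taken as the detection limit, equals 0.0783 to 0.107 CPM (counts as a scaled share of the library total); the other CPM values are also TMM-normalized, which corrects for library composition. The methods describe the viral *Lmo3* as a codon-optimized mouse sequence, and the virus labels could not be checked through this gene. The libraries had the markers of the labelled cell type. All 12 adipocyte markers were tested, and their summed level was 20684 to 22856 CPM in AdLacZ and 28139 to 33981 CPM in Ad*Lmo3* libraries, with 9 of the 12 significantly higher and a median log2 fold change of 0.59. The 12 markers of preadipocytes and fibroblasts summed to 17668 to 22403 CPM in AdLacZ and 17219 to 25831 CPM in Ad*Lmo3* libraries, none passed the test (0 at an unadjusted p under 0.05), and all 12 had overlapping groups. The 6 macrophage markers summed to 2.73 to 4.66 CPM and 2.22 to 3.62 CPM, and *Ptprc*, *Adgre1* and *Itgam* were at or under 3 counts in every library. In RNA from a whole culture, fewer cells of a type and less RNA per cell cannot be told apart. The adipocyte markers were thus higher with the *Lmo3* virus, and their part in the results below was not tested.

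Per kilobase of transcript, the levels of the 45 genes spanned from 0.0146 to 1728 CPM per kb in AdLacZ libraries, and genes of the same role differed widely in level. *Mdm2*, which encodes the ubiquitin ligase that degrades p53, had 1728 CPM per kb in AdLacZ and 1599.8 CPM per kb in Ad*Lmo3* libraries, followed by *Ccnd2* (cyclin D2) with 193 and 216 CPM per kb and *Cdkn2a* with 172 and 180 CPM per kb. The replication genes lay between 1.28 (*Mcm5*) and 18.1 (*Pcna*) CPM per kb in AdLacZ libraries. The genes of mitosis stood near the bottom, from 0.295 (*Mki67*) to 2.98 (*Top2a*) CPM per kb in AdLacZ libraries, and the cyclins A2, B1 and B2 were at 0.785, 0.411 and 0.429 CPM per kb. *Cdkn1c*, which encodes the inhibitor p57, had 1, 1 and 1 counts in AdLacZ and 1, 3 and 0 counts in Ad*Lmo3* libraries, at or under the smallest detectable number, and was the 1 gene of the list left out of the test.

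**Figure D1:**
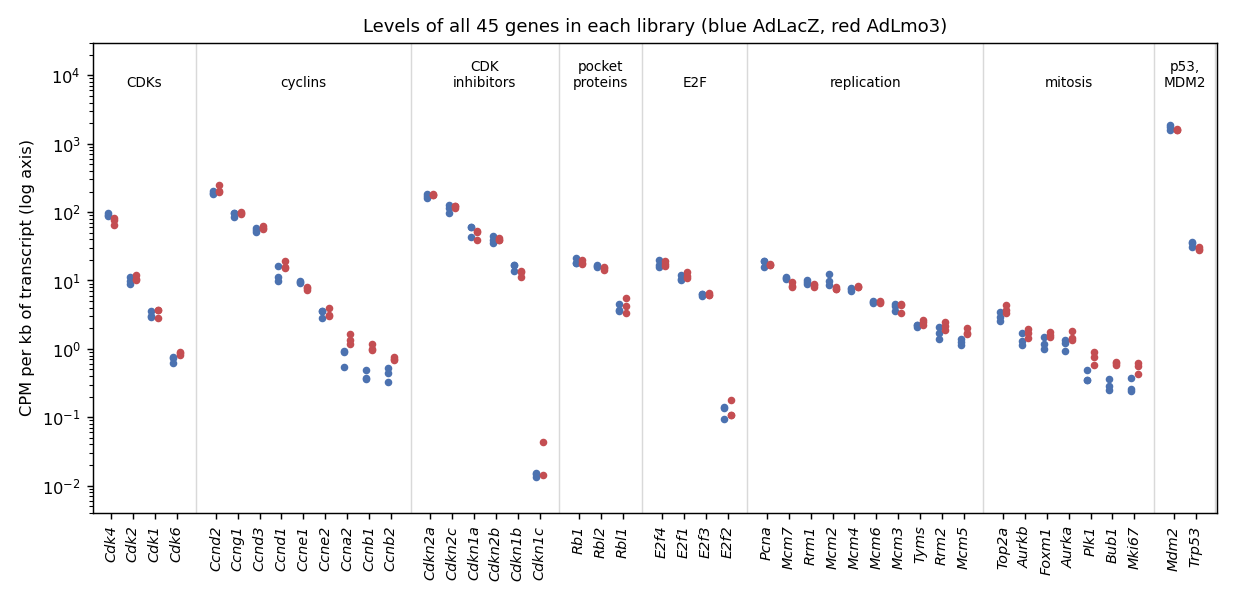
TMM-normalized CPM per kilobase of the longest coding transcript (log axis) of the 45 genes, grouped by role and ordered by level, with 1 point per library (blue AdLacZ, red Ad*Lmo3*); *Cdkn1c* has 5 points because 1 library had a count of 0. *Mdm2* and *Ccnd2* stand at the top, and the mitosis genes and the cyclins A2, B1 and B2 near the bottom. Of the 11 genes of G2 and mitosis, grouped after the values were seen, the red points lie above the blue ones in 8 (72.7%, against 13.3% of all tested genes).

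Of the 44 genes tested, 2 were significantly higher in Ad*Lmo3* libraries and 0 lower at an adjusted p-value under 0.05 (edgeR's quasi-likelihood test, Benjamini-Hochberg adjustment over the 12766 tested genes). At an unadjusted p under 0.05 there were 11 higher and 6 lower of the 44, beside 1417 higher and 1218 lower of all 12766 tested genes. These 1417 and 1218 are also the background for the unadjusted counts of the lists below. DESeq2 called 4 higher (9.09%, against 5.26% of all tested genes), which are *Ccnb1*, *Bub1*, *Mki67* and *Ccna2*. It called 4 lower (9.09%, against 3.43%), which are *Ccne1*, *Cdk4*, *Mcm2* and *Mcm7*. By edgeR the share called higher was 4.55%, against 2.71% of all tested genes, and 1.57% of all tested genes were called lower. The libraries of the groups did not overlap in 17 genes, with Ad*Lmo3* above in 11 (25% of the 44, against 13.3% of all tested genes) and below in 6 (13.6%, against 13.2%). The median log2 fold change of the 44 genes was 0.09, beside 0.0014 for all tested genes. The 2 called genes, *Ccnb1* and *Bub1*, both act in mitosis, and the differences of the list lay at its ends: the 6 highest estimates (0.73 to 1.35 on the log2 scale) were all of G2 and mitosis genes, and the lowest were those of *Mcm2* (-0.42), *Mcm7* (-0.33) and *Ccne1* (-0.32).

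**Figure D2:**
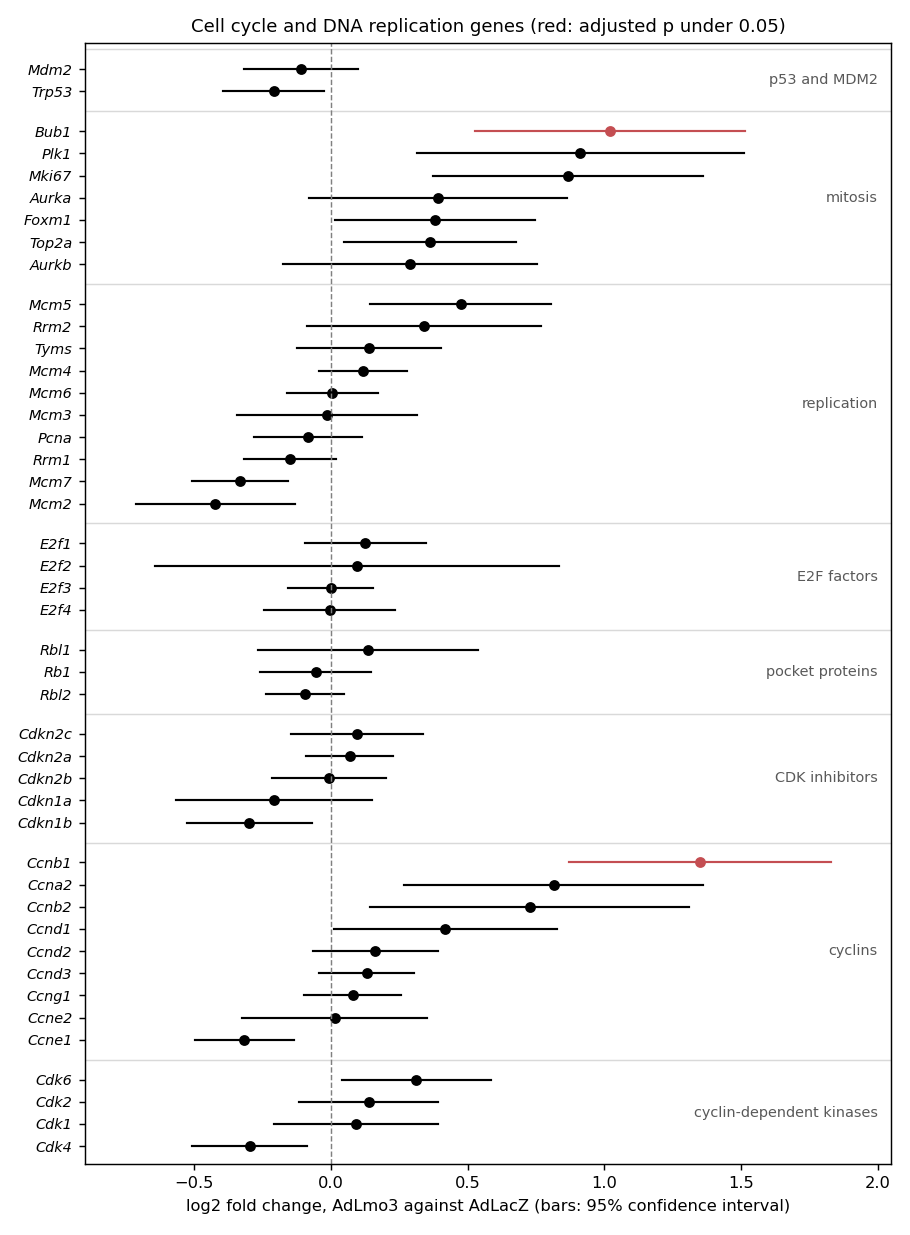
Log2 fold change of the 44 tested genes, Ad*Lmo3* against AdLacZ libraries (x axis), with 95% confidence intervals as bars, ordered within each role. *Ccnb1* (1.35) and *Bub1* (1.02), in red, had an adjusted p-value under 0.05, and all 7 genes under mitosis have an estimate above 0.

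Late cell cycle genes are known to be controlled through promoters with paired CCAAT boxes, bound by NF-Y, and a cell cycle genes homology region (CHR), bound by the MuvB core of the repressor and activator complexes, whereas many replication genes carry E2F sites. The promoters of *Ccnb1*, *Bub1*, *Mki67* and, for comparison, *Mcm6* are shown. The first 3 were taken because they had the lowest adjusted p-values among the G2 and mitosis genes of the list. *Mcm6* is a replication gene with a log2 fold change of 0.0042. The sequences are from RefSeq on GRCm38.p6 and run 5′ to 3′ along the gene from 250 bases before the start of transcription to 30 bases after it. Each gene lies on the minus strand, at chr13:100786457-100786736 for *Ccnb1*, chr2:127831830-127832109 for *Bub1*, chr7:135716350-135716629 for *Mki67* and chr1:128359676-128359955 for *Mcm6*. Capitals mark the letters CCAAT, the CHR letters TTTGAA or TTTAAA or TTCGAA, and the E2F letters TTGGCGC or TTCCCGC, each on either strand.
*Ccnb1*: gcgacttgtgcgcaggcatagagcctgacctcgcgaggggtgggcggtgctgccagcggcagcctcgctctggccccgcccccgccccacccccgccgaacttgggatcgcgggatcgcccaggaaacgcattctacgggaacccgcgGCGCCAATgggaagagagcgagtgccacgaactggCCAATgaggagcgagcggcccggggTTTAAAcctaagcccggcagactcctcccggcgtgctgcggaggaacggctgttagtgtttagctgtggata
*Bub1*: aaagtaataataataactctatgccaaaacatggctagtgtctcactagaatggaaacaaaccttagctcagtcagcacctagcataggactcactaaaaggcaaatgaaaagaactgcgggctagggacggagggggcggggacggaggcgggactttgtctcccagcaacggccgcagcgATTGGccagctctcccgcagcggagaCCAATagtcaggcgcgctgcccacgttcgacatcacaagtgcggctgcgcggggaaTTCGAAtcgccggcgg
*Mki67*: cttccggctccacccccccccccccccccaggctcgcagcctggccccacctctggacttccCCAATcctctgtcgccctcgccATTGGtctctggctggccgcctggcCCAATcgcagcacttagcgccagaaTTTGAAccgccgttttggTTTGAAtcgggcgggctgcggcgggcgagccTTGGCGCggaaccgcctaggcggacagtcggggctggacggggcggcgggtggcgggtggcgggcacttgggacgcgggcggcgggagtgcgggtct
*Mcm6*: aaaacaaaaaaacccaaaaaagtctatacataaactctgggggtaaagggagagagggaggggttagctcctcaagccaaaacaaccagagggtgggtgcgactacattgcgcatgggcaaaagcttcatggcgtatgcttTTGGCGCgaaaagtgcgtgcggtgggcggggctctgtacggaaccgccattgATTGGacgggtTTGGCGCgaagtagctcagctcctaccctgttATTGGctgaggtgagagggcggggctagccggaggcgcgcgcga

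In *Ccnb1* the CCAAT letters began 99 and 67 bases before the start and the CHR letters TTTAAA 42 bases before it, and an E2F match on the opposite strand, from 102 bases before the start, overlapped the first CCAAT. *Bub1* had CCAAT letters on the minus strand 68 bases and on the plus strand 42 bases before the start, with TTCGAA 14 bases after it. *Mki67* had 3 CCAAT matches, 2 CHR matches with TTTGAA and 1 E2F match. *Mcm6* had 2 CCAAT and 2 E2F matches and no CHR letters.

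RefSeq promoters of 300 bases, from 250 before to 50 after the start, were matched for 35 of the 45 genes (42 promoters). Of the 8 promoters of G2 and mitosis genes, 8 held CCAAT, 8 held CHR letters, 7 held at least 2 CCAAT together with CHR letters, and 3 held E2F letters. Of the 10 promoters of replication genes, 9 held CCAAT, 4 held CHR letters, 2 held the combination and 6 held E2F letters. The 24 promoters of the other genes held the combination in 3 and E2F letters in 5. Among all 32851 promoters of the same length, 37.4% held CCAAT, 28.8% CHR letters, 3.33% the combination and 6.81% E2F letters. A match of letters is a description of the window and not a bound site, and nothing here was measured on binding. *Cdk1* and *Top2a*, whose groups overlapped, carried the combination too. So did *Mcm7* and *Cdkn1b*, where the Ad*Lmo3* libraries stood below, and *Mcm5*, where they stood above. It was also found in *E2f2* and *E2f3*, whose groups overlapped. In *Mcm7*, *E2f2* and *E2f3* it was in 1 of 2 promoters.

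**Figure D3:**
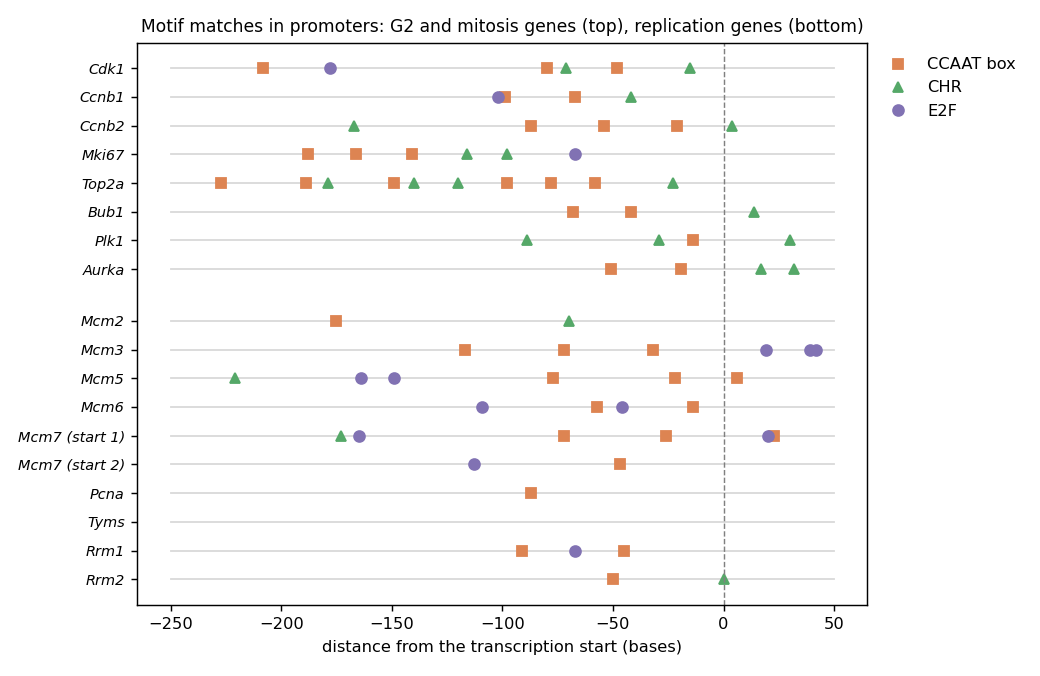
Positions of CCAAT (squares), CHR (triangles) and E2F (circles) letters in the promoters of 8 G2 and mitosis genes (top) and 10 promoters of 9 replication genes (bottom), as the distance in bases of the leftmost letter from the transcription start (dashed line). All 8 promoters at the top hold both squares and triangles, and triangles are found in 4 of the 10 at the bottom.

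*Ccnb1* encodes cyclin B1, the partner of CDK1 at entry into mitosis, and is found on chromosome 13 (GRCm38) between 100778650 and 100786570. Its counts were 33, 48 and 31 in AdLacZ and 93, 108 and 65 in Ad*Lmo3* libraries, or 0.927, 1.23 and 0.914 CPM against 2.51, 2.93 and 2.41 CPM. Every Ad*Lmo3* library stood above every AdLacZ library. The means were 1.02 ± 0.178 and 2.62 ± 0.279 CPM (SD, n = 3 each). *Ccnb1* thus rose 2.55-fold, by 1.35 ± 0.209 on the log2 scale (adjusted p = 0.0138, edgeR). Here and in what follows, log2 values are given ± their standard error, and CPM and shares ± SD. *Ccnb1* shares 35.2% of its stretches of 75 bp, the read length, with pseudogenes such as *Ccnb1-ps*, and its value carries that uncertainty. The call was lost without AdLacZ replicate 3 (1.28, adjusted p = 0.0799) and without Ad*Lmo3* replicate 2 (1.26, adjusted p = 0.0772).

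*Bub1* encodes a kinase of the spindle assembly checkpoint, and lies on chromosome 2 from 127801122 to 127831865. It had 35, 49 and 29 counts in AdLacZ and 82, 78 and 53 counts in Ad*Lmo3* libraries, which is 0.984, 1.25 and 0.855 CPM against 2.21, 2.12 and 1.96 CPM. The groups did not overlap, and no stretch of read length of this gene occurs in another gene. From 1.03 ± 0.204 to 2.10 ± 0.127 CPM (SD, n = 3 each), *Bub1* rose 2.03-fold, by 1.02 ± 0.215 on the log2 scale (adjusted p = 0.0405, edgeR). This call stood close to the threshold: it was lost when any 1 of the 6 libraries was left out (adjusted p from 0.0547 to 0.157) and in the fit with a replicate block (0.0603).

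The other mitotic cyclins and kinases had estimates on the same side without passing edgeR's test. *Mki67*, the gene of the Ki-67 protein that coats mitotic chromosomes and serves as a proliferation marker, had 2.64, 3.79 and 2.48 CPM in AdLacZ and 5.70, 6.25 and 4.29 CPM in Ad*Lmo3* libraries (log2 difference 0.87 ± 0.215, adjusted p = 0.0660, edgeR). The groups of *Mki67* did not overlap, and its call depended on the fit: it passed with DESeq2 (adjusted p = 0.00453), without a filter on low counts (0.0360) and with the replicate block (0.0372), and the 14 alternatives ranged up to 0.227. *Plk1*, the Polo-like kinase of mitotic entry, had 0.759, 1.08 and 0.767 CPM against 1.67, 1.96 and 1.26 CPM (0.91 ± 0.261, adjusted p = 0.0966, edgeR). *Ccna2*, which encodes cyclin A2 of S phase and G2, had 2.73, 2.66 and 1.59 CPM against 3.995, 4.83 and 3.44 CPM (0.81 ± 0.237, adjusted p = 0.101 from edgeR and 0.0233 from DESeq2, up to 0.296 over the alternatives). It shares 15.2% of its stretches of read length with *Exosc9*, which overlaps it on the opposite strand. In *Plk1* and *Ccna2* each Ad*Lmo3* library also stood above each AdLacZ library, and so it did in *Ccnb2* (cyclin B2), from 0.656 ± 0.147 to 1.10 ± 0.0481 CPM (0.73, adjusted p = 0.156).

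The differences were smaller in the remaining mitosis genes. *Aurka*, the Aurora kinase of centrosomes, and *Foxm1*, a transcription factor of G2 and mitosis genes, had log2 fold changes of 0.39 and 0.38 (adjusted p = 0.335 and 0.223) and groups that did not overlap. *Top2a*, the topoisomerase that untangles replicated chromosomes, was the most abundant of the 7 per kilobase, with 15.5, 17.8 and 13.4 CPM in AdLacZ and 19.6, 22.9 and 17.4 CPM in Ad*Lmo3* libraries. These overlapped, as did those of *Aurkb*, the Aurora kinase of the chromosomal passenger complex (0.36 and 0.29, adjusted p = 0.181 and 0.476). *Cdk1*, the kinase that the B cyclins activate, had 12.9, 15.7 and 13.3 CPM against 12.5, 16.2 and 16.0 CPM. Its log2 fold change was 0.09 with a 95% confidence interval from -0.21 to 0.39 (adjusted p = 0.757) and groups that overlapped.

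**Figure D4:**
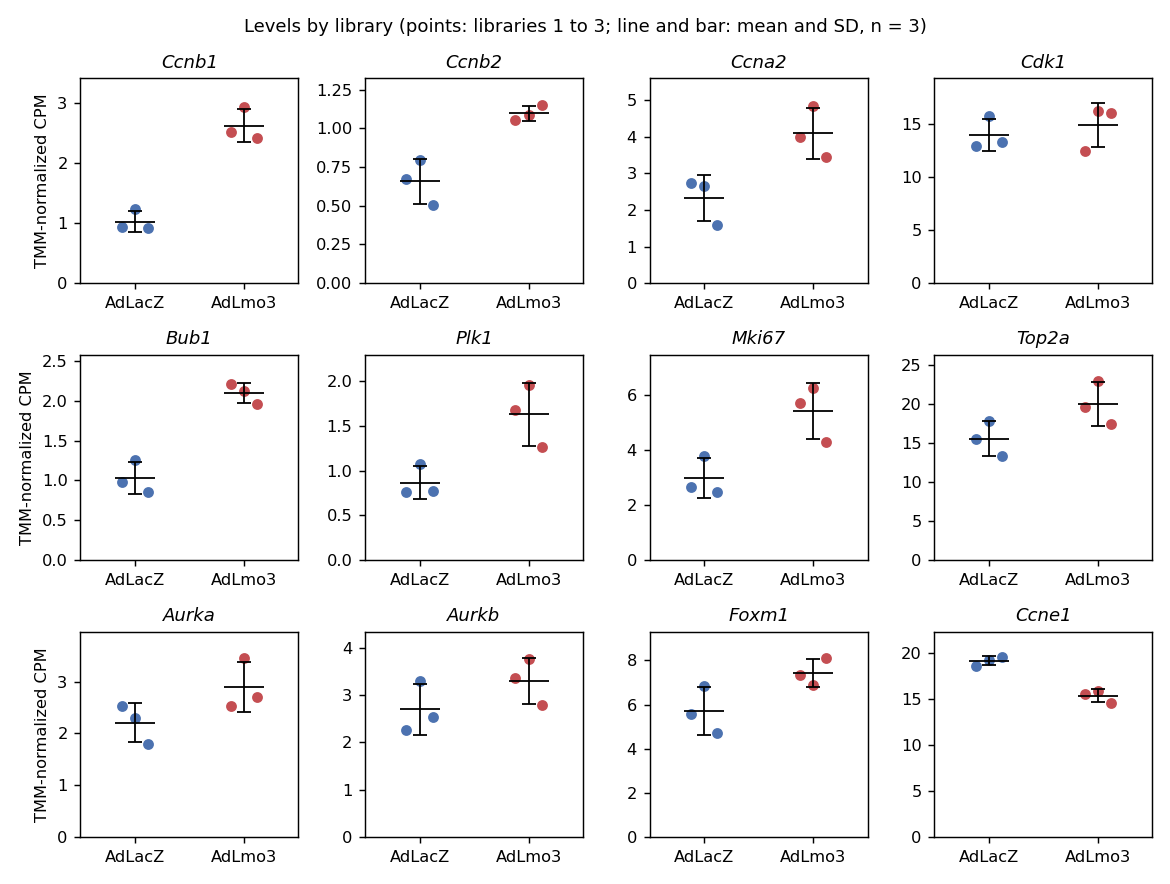
TMM-normalized CPM (linear axes from 0) of the 7 mitosis genes, *Ccnb1*, *Ccnb2*, *Ccna2*, *Cdk1* and, for contrast, *Ccne1*, with 1 point per library and lines and bars for the mean and SD (n = 3). The red Ad*Lmo3* points of *Ccnb1* and *Bub1* lie above all blue AdLacZ points, those of *Cdk1* overlap with them, and those of *Ccne1* lie below them.

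Summed over the 7 mitosis genes, the level was 30.2, 36.4 and 26.5 CPM in AdLacZ and 42.4, 47.3 and 38.5 CPM in Ad*Lmo3* libraries. The lowest Ad*Lmo3* library was above the highest AdLacZ library, and the ratio of the means (42.8 ± 4.43 to 31.01 ± 5.00 CPM, SD, n = 3 each) was 1.38. Of the 11 genes of G2 and mitosis (the 7 with *Cdk1*, *Ccna2*, *Ccnb1* and *Ccnb2*), 9 had their highest AdLacZ value in replicate 2, and 8 had their highest Ad*Lmo3* value in replicate 2. The counts for replicate 2 were 4 and 6 among the 10 replication genes, and the shares over all tested genes were 35.8% and 29.8%. The genes are read from the same libraries and are not independent of each other.

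To set this beside genes outside the 45, 45 other mitosis genes were listed, all of which were tested. *Cdc25b*, the phosphatase that activates CDK1, was significantly higher, with 18.3, 18.7 and 18.9 CPM in AdLacZ and 24.5, 25.1 and 22.7 CPM in Ad*Lmo3* libraries (log2 difference 0.37 ± 0.0745, adjusted p = 0.0321, edgeR). The call of *Cdc25b* was lost with the replicate block (0.0570), under library totals only (0.0588) and when any 1 library was left out (0.0529 to 0.130). By edgeR no other gene of this list was called, so that the share called higher was 2.22%, beside 2.71% of all tested genes (16 higher and 2 lower at an unadjusted p under 0.05). DESeq2 called 6 higher (13.3%, against 5.26%), which are *Cdc25b*, *Cenpa*, *Kif23*, *Ube2c*, *Hmmr* and *Aspm*, and 0 lower. Of the estimates, 40 of the 45 were above 0, and the median log2 fold change was 0.37. The groups did not overlap in 19 with Ad*Lmo3* above and in 2 with Ad*Lmo3* below. Summed over the 45, the level was 337, 374 and 355 CPM in AdLacZ and 369, 397 and 354 CPM in Ad*Lmo3* libraries. These sums overlapped, and the ratio of their means was 1.05. The 3 genes of the list with the highest CPM lay on the other side of 0: *Smc4* of the condensin complex (63.5 ± 2.81 against 53.3 ± 4.68 CPM, -0.25, adjusted p = 0.115), *Bub3* of the spindle checkpoint (60.3 ± 0.304 against 53.7 ± 1.42 CPM, -0.17, adjusted p = 0.130) and the actin-binding *Anln* (49.6 ± 5.18 against 43.6 ± 5.26 CPM, -0.19, adjusted p = 0.384). Over all 56 genes of G2 and mitosis, each Ad*Lmo3* library stood above each AdLacZ library in 27 (48.2%, against 13.3% of all tested genes) and below in 2 (3.57%, against 13.2%). With library totals in place of TMM factors the 27 became 20. The 11 members among the 56 were grouped after their values were seen, and the lists were chosen with earlier results of these data known. These shares are therefore a description and not a test.

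**Figure D5:**
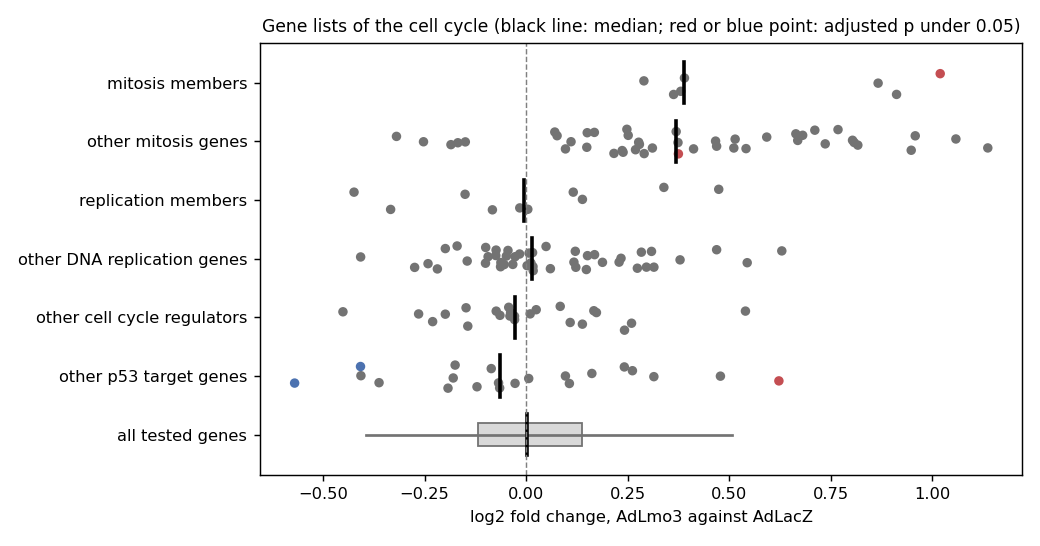
Log2 fold changes (Ad*Lmo3* against AdLacZ) of the tested genes of 6 lists, 1 point per gene, with a black line at each median and red or blue points for genes significantly higher or lower; the box and line at the bottom hold the 25th to 75th and the 5th to 95th percentile of all 12766 tested genes. The medians of the mitosis lists are 0.39 and 0.37, and those of the other lists lie between -0.07 and 0.01.

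The replication genes lay on both sides of 0. Of the 10, 0 were called by edgeR (1 higher and 2 lower at an unadjusted p under 0.05). DESeq2 called 2 of the 10 lower, beside 3.43% of all tested genes. Of the 10 genes, 5 had an estimate above 0 and 5 below, and the median log2 fold change was -0.0057. Their summed level was 195, 219 and 211 CPM in AdLacZ and 193, 199 and 186 CPM in Ad*Lmo3* libraries, which overlapped. The 6 MCM genes encode the subunits of a single ring-shaped helicase, and their estimates pointed in different directions. *Mcm7* had 30.97, 32.8 and 32.7 CPM in AdLacZ and 24.8, 27.7 and 24.0 CPM in Ad*Lmo3* libraries, without overlap (log2 difference -0.33 ± 0.0768, adjusted p = 0.0531, edgeR). *Mcm2* had 29.3, 42.2 and 33.3 CPM against 27.0, 25.5 and 25.7 CPM, also without overlap (-0.42 ± 0.126, adjusted p = 0.106, edgeR). DESeq2 called both lower (adjusted p = 0.0188 and 0.0287), and over the alternatives the adjusted p ranged up to 0.191 for *Mcm7* and 0.280 for *Mcm2*. In *Mcm5*, 4.75, 4.33 and 3.86 CPM stood below 5.53, 6.74 and 5.70 CPM (0.47 ± 0.144, adjusted p = 0.113, edgeR). *Mcm7* shares 20.5% of its stretches of read length with other genes, among them *Ap4m1*.

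As a share of the 6 MCM transcripts per kilobase, *Mcm7* made up 27.9% ± 0.744 in AdLacZ and 24.5% ± 1.06 in Ad*Lmo3* libraries, *Mcm2* 26.5% ± 3.64 and 21.99% ± 1.09, and *Mcm5* 3.29% ± 0.489 and 5.03% ± 0.404 (SD, n = 3 each). *Mcm4* made up 19.2% ± 1.90 and 23.0% ± 1.02, with groups that did not overlap in its share or in its level (0.12, adjusted p = 0.402). *Mcm3* and *Mcm6* had log2 fold changes of -0.016 and 0.0042. These shares depend on each other, and they were not tested.

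The other replication genes on the list encode a sliding clamp and enzymes that make the building blocks of DNA. *Pcna*, the sliding clamp of the polymerases, had 24.3, 28.9 and 29.1 CPM in AdLacZ and 26.4, 25.5 and 25.8 CPM in Ad*Lmo3* libraries (-0.08, 95% confidence interval -0.28 to 0.11, adjusted p = 0.647), with 23.7% of its stretches of read length shared with *Pcna-ps2*. The large and the small subunit of ribonucleotide reductase, *Rrm1* and *Rrm2*, had log2 fold changes of -0.15 and 0.34 (adjusted p = 0.298 and 0.357), and *Tyms* (thymidylate synthase) 0.14 (adjusted p = 0.558). Their groups overlapped. Among 46 other DNA replication genes, 0 were called by edgeR (4 higher and 3 lower at an unadjusted p under 0.05, lowest adjusted p 0.131) and 0 by DESeq2, 26 had an estimate above 0 and 20 below, and the median was 0.014. The highest of them by CPM, not divided by length, were *Rfc1* of the clamp loader, *Rpa1* of the single-strand binding complex and *Orc4* of the origin recognition complex, with log2 fold changes of -0.07, -0.17 and -0.15 (adjusted p = 0.688, 0.224 and 0.330).

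The cyclins of G1 were far more abundant than those of mitosis. The D-type cyclins link growth signals to CDK4 and CDK6, and cyclin D2 made up 74.3% ± 2.23 of their transcripts per kilobase in AdLacZ and 73.8% ± 2.40 in Ad*Lmo3* libraries (SD, n = 3 each). *Ccnd2* had 1199, 1183 and 1275 CPM in AdLacZ and 1305, 1233 and 1556 CPM in Ad*Lmo3* libraries, which overlapped (log2 fold change 0.16, adjusted p = 0.410). *Ccnd1* (cyclin D1) had 60.4, 42.2 and 36.5 CPM against 58.8, 56.1 and 71.0 CPM. AdLacZ replicate 1 was the 1 control library at the level of the Ad*Lmo3* libraries, and the log2 fold change was 0.42 with it (adjusted p = 0.232 from edgeR) and 0.65 without it (adjusted p = 0.0431). This was the 1 alternative of 14 in which *Ccnd1* passed. Without AdLacZ replicate 3 the log2 fold change was 0.27 (adjusted p = 0.517, edgeR), the highest adjusted p over the alternatives. A share of 26.1% of the stretches of read length of *Ccnd1* is found in a gene on the opposite strand. *Ccnd3* had a log2 fold change of 0.13 (adjusted p = 0.384).

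*Ccne1*, which encodes cyclin E1 of the transition into S phase, lies on chromosome 7 from 38097984 to 38107534 and was the cyclin with the lowest estimate. Its level was 18.6, 19.2 and 19.5 CPM in AdLacZ and 15.5, 15.9 and 14.5 CPM in Ad*Lmo3* libraries, which did not overlap, and with 19.1 ± 0.471 and 15.3 ± 0.685 CPM (SD, n = 3 each) the replicates lay close together. The log2 fold change was -0.32 (standard error 0.0785) and missed the threshold with an adjusted p of 0.0653 from edgeR. It passed with DESeq2 (0.0423) and under library totals only (0.0330), and the alternatives ranged up to 0.218. *Ccne2* had overlapping groups and a log2 fold change of 0.013 (95% confidence interval -0.32 to 0.35). *Ccng1*, a target of p53 that is a cyclin by sequence, had 326 ± 23.4 and 345 ± 14.5 CPM (SD, n = 3 each) and a log2 fold change of 0.08 (adjusted p = 0.626).

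Of the kinases of G1, *Cdk4* made up 99.2% ± 0.0557 of the *Cdk4* and *Cdk6* transcripts per kilobase in AdLacZ and 98.8% ± 0.192 in Ad*Lmo3* libraries (SD, n = 3 each), and the estimates of the pair had opposite signs. *Cdk4* had 186, 199 and 179 CPM in AdLacZ and 167, 158 and 135 CPM in Ad*Lmo3* libraries (log2 difference -0.30 ± 0.0912, adjusted p = 0.114 from edgeR and 0.0370 from DESeq2, up to 0.244 over the alternatives). *Cdk6* had 8.49, 8.70 and 7.05 CPM against 9.39, 10.2 and 10.6 CPM (0.31 ± 0.118, adjusted p = 0.183, edgeR). Neither overlapped between groups and neither passed edgeR's test. *Cdk4* shares 28.7% of its stretches of read length with *Tspan31*, which overlaps it on the opposite strand, and its value is uncertain. *Cdk2*, the partner of the E-type and A-type cyclins, had a log2 fold change of 0.14 with overlapping groups (adjusted p = 0.548).

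The inhibitors hold these kinases in check. *Cdkn2a*, whose symbol covers both p16INK4a and ARF, made up 43.4% ± 2.00 of the inhibitor transcripts per kilobase in AdLacZ and 44.9% ± 1.22 in Ad*Lmo3* libraries, and *Cdkn2c* (p18), an inhibitor of CDK4 and CDK6, 28.5% ± 3.61 and 30.1% ± 1.19 (SD, n = 3 each). Of the 5 inhibitors tested, 0 were called (1 lower at an unadjusted p under 0.05, and 0 by DESeq2). *Cdkn1b*, which encodes p27, had 63.4, 76.6 and 75.9 CPM in AdLacZ and 61.0, 62.5 and 51.9 CPM in Ad*Lmo3* libraries, without overlap (-0.30 ± 0.0996, adjusted p = 0.140, edgeR). *Cdkn1a*, the p53 target that encodes p21, had 90.9, 127 and 127 CPM against 108, 109 and 81.3 CPM, which overlapped (-0.21, adjusted p = 0.511). *Cdkn2a*, *Cdkn2b* (p15) and *Cdkn2c* had log2 fold changes of 0.07, -0.0082 and 0.09, with overlapping groups.

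The estimates of the pocket proteins and E2F factors lay on both sides of 0, between -0.10 and 0.13 on the log2 scale. *Rb1* had 83.2, 83.9 and 97.9 CPM in AdLacZ and 79.8, 82.6 and 92.5 CPM in Ad*Lmo3* libraries (log2 fold change -0.06, 95% confidence interval -0.26 to 0.15). *Rbl2*, which encodes p130, the family member of resting cells, had 80.0 ± 2.57 and 74.8 ± 3.44 CPM (SD, n = 3 each), without overlap (-0.10, adjusted p = 0.433), and *Rbl1* (p107) a log2 fold change of 0.13 (adjusted p = 0.728). Per kilobase, *Rb1* and *Rbl2* made up 48.4% and 41.5% of the pocket protein transcripts in AdLacZ and 48.3% and 40.3% in Ad*Lmo3* libraries. Among the E2F factors, the repressor *E2f4* made up 50.4% and 49.0% and the activator *E2f1* 31.3% and 33.2%. The 4 E2F genes had log2 fold changes from -0.0053 to 0.13, and for *E2f3*, the most precise of them, the 95% confidence interval ran from -0.16 to 0.15. *E2f2* was the least abundant of the tested genes per kilobase, and its interval ran from -0.65 to 0.84, wide enough to hold the estimates of *Ccnb2* and *Ccna2*. Of 24 other cell cycle regulators, 23 were tested and 0 were called by edgeR (0 higher and 2 lower at an unadjusted p under 0.05), with a median of -0.03. DESeq2 called 0 of these regulators higher and 2 lower, *Rbbp4* and *Cdk7* (8.7%, against 3.43% of all tested genes). The highest by CPM were *Rbbp4*, a histone-binding partner of the pocket protein complex (-0.23, adjusted p = 0.0862), *Ccng2* (0.17, adjusted p = 0.521) and *Cdk7*, the kinase that activates other CDKs (-0.26, adjusted p = 0.0558).

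*Trp53* encodes p53, which halts the cell cycle after damage, and had 68.6, 64.9 and 57.0 CPM in AdLacZ and 57.4, 52.5 and 54.8 CPM in Ad*Lmo3* libraries. The lowest AdLacZ library lay within the Ad*Lmo3* range (-0.21 ± 0.0801, adjusted p = 0.186, edgeR). *Mdm2*, on chromosome 10 from 117688875 to 117710758, had 4960, 5846 and 5498 CPM in AdLacZ and 4910, 5047 and 5138 CPM in Ad*Lmo3* libraries, which overlapped (-0.11, 95% confidence interval -0.32 to 0.10, adjusted p = 0.554). It ranked 6th of 24421 symbols by CPM and 11th of the 23376 with a transcript length by CPM per kilobase. Of 23 other targets of p53 listed, 21 were tested. By edgeR 1 was called higher and 2 lower, beside 2.71% and 1.57% of all tested genes, and the median was -0.07. DESeq2 called 2 higher (9.52%, with *Ei24*) and 4 lower (19%, with *Sesn2* and *Trp53inp1*), against 5.26% and 3.43% of all tested genes. Counts this small were not tested as a group. *Phlda3*, which encodes a repressor of AKT, rose from 106, 101 and 97.6 to 149, 161 and 160 CPM (0.62 ± 0.0671, adjusted p = 0.00352, edgeR). *Gadd45a*, a stress gene of the G2 checkpoint, fell from 102, 113 and 116 to 78.0, 75.7 and 69.5 CPM (-0.57 ± 0.0763, adjusted p = 0.00878, edgeR), and *Plk2*, a Polo-like kinase of early G1, from 76.7, 88.7 and 78.8 to 65.0, 56.5 and 62.6 CPM (-0.41 ± 0.0814, adjusted p = 0.0326, edgeR). The groups of these 3 genes did not overlap, *Gadd45a* lost its call without AdLacZ replicate 3 (adjusted p = 0.0558), and *Plk2* lost its call with the replicate block (0.0646) and without AdLacZ replicate 1, 2 or 3 or Ad*Lmo3* replicate 2 or 3 (0.0521 to 0.130).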

How the data were processed

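The 6 libraries were made from total RNA with a kit that does not mark strand (NEBNext Ultra II RNA) and sequenced as single reads of 75 bp. The authors mapped them with STAR 2.5.0b to mm10 (bcl2fastq and DESeq2 1.6.3 are also named in the submitters' processing notes) and deposited raw counts per gene symbol, 1 table per library. The counting program, its strand setting and the annotation are not given in the sources used here, and reads of overlapping antisense genes cannot be told apart. The last 2 entries of each table, reads on no gene (7.15% to 8.94%) or on several (0.476% to 0.543%), were left out. Totals on genes were 28035639 to 38332335, and 3 counts were taken as the smallest detectable number, which covers counting error only.

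The test was edgeR 4.0.16 in R 4.3.3 (genes kept by filterByExpr, TMM, glmQLFit and glmQLFTest, AdLmo3 against AdLacZ, no replicate block), adjusted by Benjamini-Hochberg over the 12766 tested genes, with a threshold of 0.05. The standard error is the log2 fold change divided by the square root of F. Replicates differed beyond sampling noise (chi-square per degree of freedom 22.9 to 61.6), and each library is 1 replicate. An exact permutation test of 3 against 3 reaches no two-sided p below 0.1, and genes were tested only in the fit across all genes. Levels per kilobase use the longest coding transcript of GENCODE M21 (GRCm38), which also gave positions and the share of 75 bp stretches found in other genes. Motif letters were searched in RefSeq promoters (GRCm38.p6). The code was tested on simulated counts with 200 genes changed 2-fold. It recovered 167 of these, and 8.74% of the genes called were false, beside the threshold of 0.05. Plots were made with matplotlib 3.10.9.

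The genes named were all 45 members and, from each other list, those called plus, where fewer than 3 were called, the 3 with the highest CPM. Genes of those lists called by DESeq2 and not by edgeR were named after their values were seen. The members and lists were chosen with earlier results of these data known. The grouping of 11 members as G2 and mitosis genes, the motifs and the promoters shown were chosen after the values were seen. Alternatives were DESeq2 1.42.0, limma 3.58.1 voom, RLE, upper-quartile and no scaling factors, other count filters, the replicate block and leaving out each library. The microarray, tissue and human cell experiments were not analysed here.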

Additional observations from a re-analysis of the deposited data

How the results depend on the processing

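The 44 tested genes gave 616 log2 fold changes under 14 alternatives, of which 568 kept their sign and their side of the threshold, 11 newly passed it, 9 no longer passed it (*Ccnb1* and *Bub1*, as given in the report) and 28 changed sign. The genes among the 44 that changed sign had main estimates from -0.06 (*Rb1*) to 0.13 (*Rbl1*), and the cause was not tested. *E2f3* was at 0.000327 with DESeq2 and 0.000959 with RLE factors, and *E2f4* at 0.000915 with limma voom. With library totals only, *Ccne2*, *Cdkn2a* and *Mcm6* were at -0.0591, -0.0061 and -0.0695. Leaving out single libraries gave -0.12 to 0.0879 for *Ccne2*, -0.0902 to 0.0828 for *Cdkn2b*, -0.014 to 0.19 for *Cdkn2c*, -0.19 to 0.24 for *E2f2*, -0.0411 to 0.0219 for *E2f3*, -0.0776 to 0.10 for *E2f4*, -0.10 to 0.11 for *Mcm3*, -0.0234 to 0.0391 for *Mcm6*, -0.12 to 0.0241 for *Rb1*, -0.0668 to 0.29 for *Rbl1* and, outside the 44, -0.14 to 0.0107 for *Rfc1*. The number of members called higher was 2, 4 with DESeq2 and 0 to 2 when a library was left out (0 without AdLacZ replicate 3 or Ad*Lmo3* replicate 2). The number called lower was 0, 4 with DESeq2 and 2 with library totals only (*Ccne1* and *Mcm7*). All tested genes called numbered 547, 1110 with DESeq2 and 77 to 501 with 1 library less, the lowest without AdLacZ replicate 3. Library totals only moved the median of all genes to -0.07, the share of calls that were higher from 63.3% to 34.7%, and the log2 ratio of the summed replication genes from -0.11 to -0.18. The G2 and mitosis genes above in every Ad*Lmo3* library numbered 27 with TMM or RLE factors, 26 with upper-quartile factors and 20 with library totals, alternatives chosen after seeing the data. With the replicate block 498 genes were called, 400 of them shared with the fit without it, and among the members *Mki67* was gained and *Bub1* lost. Same-numbered libraries deviated together by 0.03, 0.18 and 0.18 (correlation across genes). The values of replicates 2 and 3 were the highest of all combinations, while Ad*Lmo3* replicate 1 correlated best with AdLacZ replicate 2 (0.149). With 3 libraries per group these values cannot decide whether the numbers are pairs. The fit without a block was kept as the main one, and the calls of *Mki67* and *Bub1* depend on that choice. Of the 44 genes, *E2f2* had the widest standard error (0.322), and whether more depth would change a call was not tested.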

Other observations

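The level of *Mdm2* was compared with that of its neighbours on chromosome 10 of GRCm38, a comparison chosen after its rank was seen. *Slc35e3*, which encodes a member of a nucleotide sugar transporter family and starts 22921 bp from *Mdm2*, was also among the most abundant transcripts, at 339 CPM per kb over all libraries (ranked 116th of 23376), against 1664 CPM per kb for *Mdm2*. Its level was 1102 ± 26.4 CPM with AdLacZ and 1265 ± 110 CPM with Ad*Lmo3* (SD, n = 3 each), without overlap between the groups (log2 difference 0.20 ± 0.0837, the standard error, adjusted p = 0.228, edgeR). *Cpm*, 1523 bp away on the other side, had 0.158 CPM per kb, *Nup107*, 39863 bp away, 6.42 CPM per kb, and *Rap1b* and *Cpsf6* 62.6 and 11.9 CPM per kb. The number of gene copies was not measured in these libraries.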
